A study of Mus musculus with 19 samples.

Results

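At 301 intronic regions, H3K27ac was listed as higher than in basal microglia in both CD11c gates of cuprizone-fed (CPZ) mice, at identical coordinates. The identical coordinates let these regions be measured over the same bases in all 3 groups. They were selected on the deposited values: a region had to stand, with the same chromosome, start and end, among the gains listed for CD11c-low against basal and among those listed for CD11c-high against basal, to be annotated as intronic and to span under 5000 bp. The gains numbered 4334 for CD11c-low and 5571 for CD11c-high, of which 2145 and 2698 were intronic and under that width. Only 1108 regions, 625 gains and 483 losses, had identical coordinates in both comparisons, and no region was a gain in one and a loss in the other. A reciprocal overlap of at least 50%, in place of identical coordinates, matched 1419 intronic gains under that width. All 10 deposited lists together held 14035 regions. The widest members were 4785, 4844 and 4944 bp long, and the next intronic shared gains, at 5010, 5096 and 5125 bp, were left out.

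H3K27ac, the acetylation of lysine 27 of histone H3, marks active promoters and enhancers, and in macrophages many enhancers lie within introns, either of the gene they act on or of a neighbour. Microglia, the resident macrophages of the brain, take up myelin debris when oligodendrocytes die, and some of them then express CD11c, the integrin alpha chain encoded by Itgax. Fed to mice, the copper-binding compound cuprizone leads to death of oligodendrocytes and loss of myelin.

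The 3 groups were all C57BL/6 PRMT1 fl/fl mice without Cre, called WT, which per the study's methods also received tamoxifen, so they carried the arginine methyltransferase PRMT1 throughout. WT CPZ CD11c-high and WT CPZ CD11c-low microglia came from mice given a diet with 0.2% cuprizone for 5 weeks. Per the labels the start was at 4 to 6 weeks of age. The study's methods differ, with tamoxifen at 5 to 6 weeks of age and the cuprizone diet begun 2 weeks later. Microglia of the 2 gates were sorted apart by CD11c after a sort for CD11b and CD45. WT basal microglia came from mice on a normal diet labelled 11 weeks and were not divided by CD11c, so basal differs from each gate in diet and in sorting. Each group had 2 H3K27ac libraries, which the labels call independent biological replicates, and whether the pools of animals behind the 2 gates were the same is not given in the sources used here. One more group, KO CPZ CD11c-low, carried PRMT1 fl/fl with a tamoxifen-inducible Cre driven from Cx3cr1, a gene that other macrophages of the brain borders also express, and enters only the last comparison below.

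The value of a region is its normalized tag count, the reads in it scaled by the authors to the mean size of the 4 libraries of a comparison. Basal values were 1.03 times larger in the CD11c-low than in the CD11c-high comparison at every region with 20 or more tags (1901 values), and all values are given here on the scale of the CD11c-low comparison, after multiplying the values of the CD11c-high comparison by that ratio. Relative depth was 103% and 119% of the mean of the 6 libraries in CD11c-high, 120.3% and 113% in CD11c-low, and 57.4% and 87.0% in basal. The median member held 138 and 155 reads in CD11c-high, 152 and 139 in CD11c-low, and only 32 and 39 in basal, where the lowest members held 3 and 6 reads. In bulk chromatin a higher value can come from more acetylation in each cell or from more cells that carry it, which cannot be told apart. The lists hold only regions that differed, so the identity of the sorted cells could not be checked on unchanged genes. Of marker genes, 11 of 30 of homeostatic microglia were nearest to a listed loss and 6 to a listed gain, whereas a listed gain was nearest to 5 and a loss to 2 of 18 markers of monocytes and border macrophages. Gains and losses were nearest to 2 and 1 of 16 lymphocyte markers, 2 and 2 of 15 of oligodendrocytes, 3 and 1 of 12 of astrocytes, 3 and 3 of 14 of endothelium, and 0 and 0 of 14 of neurons. What part other cells had in the members was not tested.

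The central 300 bases of 6 members are shown, because the results below turn on them: Lrp1 was the member called lower in CD11c-high than in CD11c-low, Cnksr3 had the largest difference the other way and Elmo1 the one with the smallest adjusted p, Top3a held a pair of AP-1 letters, Cnr2 had the highest level of a member outside the sex chromosomes, and Dreh was the member that overlapped a region listed as different between KO and WT CD11c-low cells. They are read from RefSeq's GRCm38.p6 (mm10), plus strand, and capitals mark letters of the motifs searched on both strands.
Lrp1, chr10:127610842-127611141: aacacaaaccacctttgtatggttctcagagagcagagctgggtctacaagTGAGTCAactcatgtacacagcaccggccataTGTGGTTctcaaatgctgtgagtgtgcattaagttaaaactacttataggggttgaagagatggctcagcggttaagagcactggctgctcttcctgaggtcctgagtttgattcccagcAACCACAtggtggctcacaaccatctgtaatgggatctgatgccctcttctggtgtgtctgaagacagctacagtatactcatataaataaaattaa
Cnksr3, chr10:7207402-7207701: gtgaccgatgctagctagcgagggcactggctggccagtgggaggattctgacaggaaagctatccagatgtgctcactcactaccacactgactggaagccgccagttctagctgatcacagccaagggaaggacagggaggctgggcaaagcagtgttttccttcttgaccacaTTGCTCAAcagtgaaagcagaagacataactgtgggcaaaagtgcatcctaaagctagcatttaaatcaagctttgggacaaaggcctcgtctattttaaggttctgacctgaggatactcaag
Elmo1, chr13:20458656-20458955: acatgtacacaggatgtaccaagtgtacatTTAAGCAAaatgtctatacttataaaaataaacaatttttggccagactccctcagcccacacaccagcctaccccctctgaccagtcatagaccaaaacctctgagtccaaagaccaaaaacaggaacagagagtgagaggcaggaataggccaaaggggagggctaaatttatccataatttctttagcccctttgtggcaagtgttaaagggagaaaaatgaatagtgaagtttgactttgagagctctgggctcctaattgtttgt
Top3a, chr11:60761909-60762208: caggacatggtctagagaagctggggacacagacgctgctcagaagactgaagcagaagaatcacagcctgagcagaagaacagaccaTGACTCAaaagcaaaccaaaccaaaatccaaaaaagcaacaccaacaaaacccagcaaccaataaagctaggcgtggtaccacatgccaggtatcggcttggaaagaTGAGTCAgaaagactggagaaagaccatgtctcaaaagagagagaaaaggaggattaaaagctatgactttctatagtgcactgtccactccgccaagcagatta
Cnr2, chr4:135896954-135897253: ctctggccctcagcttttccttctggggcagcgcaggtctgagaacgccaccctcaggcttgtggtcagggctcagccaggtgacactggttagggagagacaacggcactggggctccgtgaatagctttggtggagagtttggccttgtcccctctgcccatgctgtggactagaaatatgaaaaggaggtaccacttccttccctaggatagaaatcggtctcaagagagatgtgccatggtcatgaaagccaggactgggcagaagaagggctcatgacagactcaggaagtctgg
Dreh, chr17:64722347-64722646: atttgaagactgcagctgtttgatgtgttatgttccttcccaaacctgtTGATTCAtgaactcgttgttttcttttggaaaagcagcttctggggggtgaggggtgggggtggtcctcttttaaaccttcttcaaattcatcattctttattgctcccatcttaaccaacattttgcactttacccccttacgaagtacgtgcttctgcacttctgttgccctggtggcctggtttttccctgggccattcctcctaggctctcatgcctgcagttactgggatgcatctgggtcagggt
The Lrp1 window held 1 AP-1 match (TGANTCA) and 2 RUNX matches (TGTGGTT or its complement), the Cnksr3 and Elmo1 windows 1 C/EBP match each (TTGCNNAA), the Top3a window 2 AP-1 matches, the Dreh window 1 AP-1 match, and the Cnr2 window none of the 13 motifs.

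Both gates lay at similar levels over the members, well above basal. The median level was 123.7 normalized tags in CD11c-high (range 29.5 to 1369), 118 in CD11c-low (27.2 to 1440) and 48.5 in basal (7.90 to 350.3), over 301 regions and means of 2 libraries. All 4 gate libraries stood above both basal libraries at each of the 301 members, which follows from how they were chosen. The median log2 difference from basal was 1.42 for CD11c-high (quartiles 1.24 and 1.71) and 1.28 for CD11c-low (1.16 and 1.52), and the smallest, 0.99 in each gate, sit at the fold change of 2 that the authors required. The nearest to that limit was Adcy7, an adenylate cyclase, with means of 109.9, 110.0 and 54.2 tags in CD11c-high, CD11c-low and basal. Regions below the limit are not listed. These differences chose the members and are given as a description. They also depend on the scaling: with TMM factors over the 1108 regions, which hold gains and losses only, the medians were 0.93 for CD11c-high and 0.74 for CD11c-low.

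**Figure D1:**
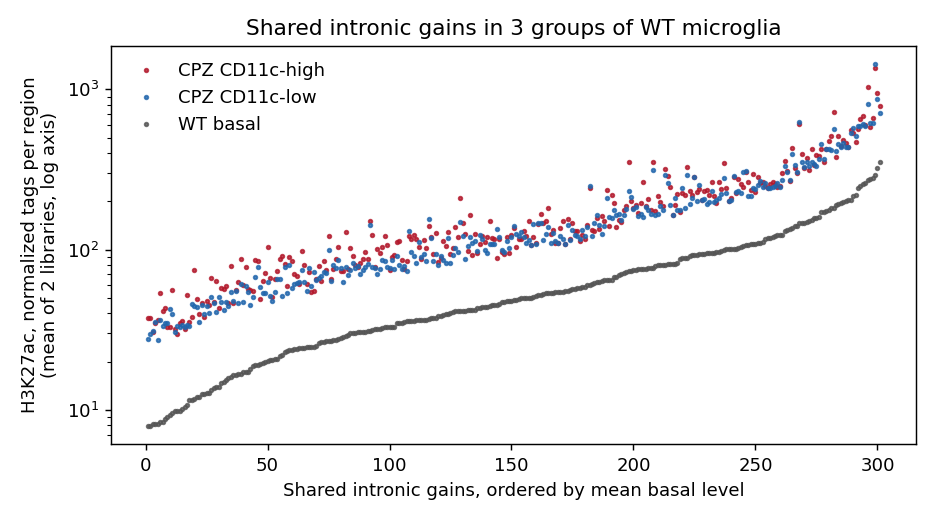
Mean H3K27ac level (normalized tags per region, log axis, mean of 2 libraries) of the 301 shared intronic gains, ordered from left to right by basal level, in CPZ CD11c-high (red), CPZ CD11c-low (blue) and WT basal (grey) microglia. The red and blue points run together, with medians of 123.7 and 118, above the grey points, with a median of 48.5.

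Replicates were closest in the gates. The 2 libraries of a group differed by a median of 0.13 on the log2 scale in CD11c-high, 0.15 in CD11c-low and 0.33 in basal, and basal replicate 1 lay above basal replicate 2 at 227 of 301 members. The members spread over a wide range of size, and their level followed it: Spearman's correlation between width and CD11c-high level was 0.91 across the 301 regions, which share the same libraries. The 70 members under 1000 bp had medians of 58.4 tags in CD11c-high, 47.5 in CD11c-low and 16.2 in basal, and the 41 members of 3000 bp or more had 436.3, 436.7 and 172. The narrow members had the larger difference from basal, with a median log2 difference of 1.77 in CD11c-high and 1.6 in CD11c-low, against 1.29 and 1.22 in the widest ones. Their basal values rest on the fewest reads, and the part of this in the fold was not tested.

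Every member was a region that the authors' caller had found in basal microglia. Regions were merged between the groups compared, and basal was the only group in both comparisons. The demand for identical coordinates therefore favoured regions with a basal call. Of the intronic gains under the same width that were not members, 58.3% of 2397 in CD11c-high and 65.5% of 1844 in CD11c-low had a basal call, and the others, 999 and 636, were called in the gate alone. The members' median basal level was 48.5 tags, against 27.2 for the other intronic gains of CD11c-high and 34.9 for those of CD11c-low, while the gate levels were 123.7 against 130.6 and 118 against 123. The median log2 difference from basal, taken on means, was 1.41 against 2.05 in CD11c-high and 1.27 against 1.78 in CD11c-low. The rule used these values, so they describe what it picked.

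By where else they were called, 121 members had calls in basal and both gates, 46 in basal and CD11c-high, 37 in basal and CD11c-low, and 97 in basal alone. The 97 regions without a gate call of their own held more tags in the gates than in basal, as the rule required of every member. Their medians were 74.4 tags in CD11c-high, 62.3 in CD11c-low and 24.0 in basal over a median width of 828 bp, whereas the 121 regions called in all groups had 243, 232 and 96.1 tags over 2339 bp. The median log2 difference from basal was 1.69 in CD11c-high and 1.47 in CD11c-low for the 97, and 1.31 and 1.2 for the 121.

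**Figure D2:**
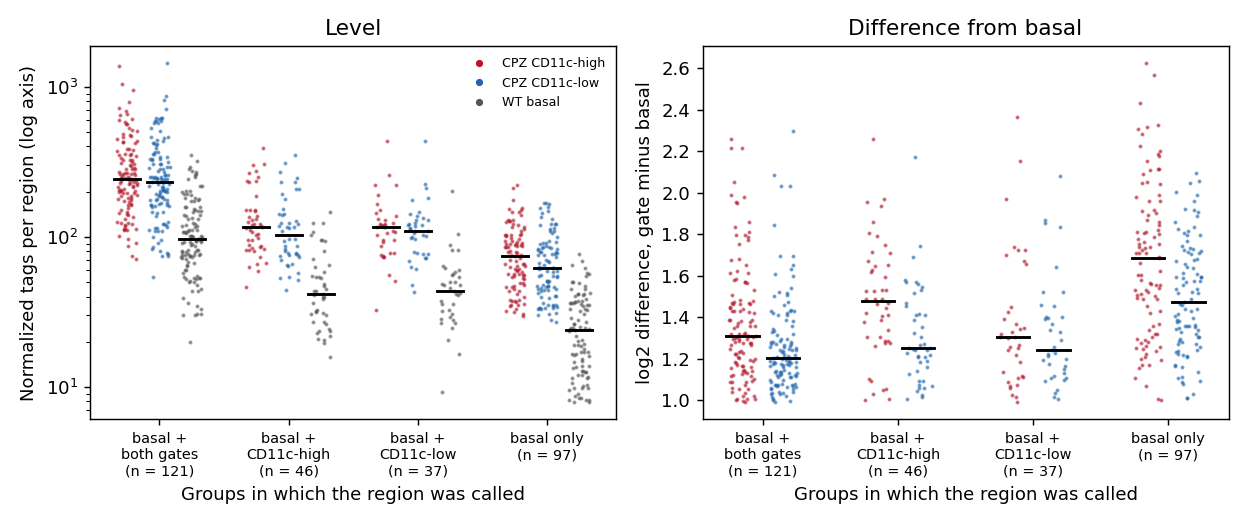
Members by the groups in which the authors' caller found them. Left, normalized tags per region (log axis) in CPZ CD11c-high (red), CPZ CD11c-low (blue) and WT basal (grey); right, log2 difference of each gate from basal. Each point is a region (mean of 2 libraries) and each black line a median. The 97 regions called in basal only have the lowest levels and the largest differences from basal, with medians of 1.69 and 1.47.

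The member with the highest CD11c-high mean (chrX:169978606-169982438), nearest to the start of G530011O06Rik and within intron 4 of 9 of Mid1, a microtubule-associated ubiquitin ligase gene at the pseudoautosomal boundary, had 1174 and 1563 tags in CD11c-high, 1329 and 1551 in CD11c-low, and 328.5 and 258 in basal. The gates overlap there. Of its 76 consecutive 50-base pieces, 33 also occur on chromosome Y of the build, so reads may have been shared between copies and the level is uncertain. The same holds for a smaller member of the same gene, where 9 of 13 pieces recur on Y, and for the Erdr1 member on chromosome Y, where 8 of 76 recur on X and where the replicates were far apart, at 313 and 178 tags in CD11c-high, 414 and 197 in CD11c-low and 103.5 and 107 in basal.

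Next came Cnr2, the cannabinoid receptor of immune cells (chr4:135894837-135899370, intron 1 of 1), with 1075 and 999 tags in CD11c-high, 866 and 760.4 in CD11c-low, and 324 and 220.1 in basal. Both CD11c-high libraries were above both CD11c-low ones, and the log2 difference of 0.35 (SE 0.09) had an adjusted p of 0.0579 by limma. Slc16a3, the lactate exporter MCT4, had 836 and 742 tags in CD11c-high, 739 and 677 in CD11c-low and 406 and 295 in basal, and was the member with the highest basal mean. CD11c-high replicate 1 stood apart there, and the second replicate lay only just above the higher CD11c-low library. The cell adhesion gene Cadm1 had 669 and 700.5 tags in CD11c-high, 592 and 625.5 in CD11c-low, and 289 and 225.5 in basal. Rin2 (a Rab5 regulator), Rab8b (a small GTPase of vesicle transport), the long noncoding RNA gene Pldi and Gm1647 made up the rest of the 8 highest, with single CD11c-high libraries between 606 and 989.7 tags. At Gm1647, 52.6% of the bases are repeat-masked. The highest basal means also included Sbno2, a transcriptional coregulator, with 598 and 561 tags in CD11c-high, 628 and 610.5 in CD11c-low and 322 and 230 in basal.

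Among members with at least 100 tags in CD11c-high, the lowest basal means were at Slc16a7, 4930515L03Rik, Cs, Hhla1 and Mir3108. Slc16a7, the monocarboxylate transporter MCT2 (chr10:125324280-125325089, intron 1 of 5), had 100.5 and 107 tags in CD11c-high, 63.6 and 61.1 in CD11c-low, and 23.0 and 17.4 in basal. Its 3 groups did not overlap, and it held a basal call only. Cs, which encodes citrate synthase of the tricarboxylic acid cycle, had 107 and 99.6 tags in CD11c-high, 73.7 and 98.0 in CD11c-low, and 39.4 and 16.3 in basal, so CD11c-high replicate 2 lay just above CD11c-low replicate 2 while CD11c-low replicate 1 stood apart. The 4930515L03Rik region, at the last intron (13 of 13) of Plxdc2 and 275 kb from the nearest annotated start, had 119.7 and 123 tags in CD11c-high, 102 and 97.1 in CD11c-low and 29.6 and 23.9 in basal.

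The members sat mostly in early introns, away from starts. Intron 1 held 141 of 301 (46.8%) and intron 2 held 54, and 17 lay within 1 kb and 93 within 10 kb of an annotated start. The share in intron 1 was not compared with that of other sets. The median distance to the nearest start was 15.5 kb at the 324 other gains with identical coordinates and 28.5 kb at the 244 intronic losses. At the members the nearest start lay at a median of 17.1 kb (quartiles 7.97 and 36.3 kb). For 248 members that start belonged to the gene holding the intron, and for 53 to another gene, so the name given to a region is not always its host. Regions in intron 1 had medians of 145.5, 124 and 53.2 tags in CD11c-high, CD11c-low and basal, and those in later introns 116, 110.0 and 43.5. The members were nearest to 274 genes, of which 25 had 2 or more. Cmip, the gene of the c-Maf-inducing protein, and Tec, a kinase of immune receptor signalling, had 3 each, and 3 lay in introns of Lpp, a focal adhesion gene. These genes were picked after their values were seen, for their number of regions. The 3 Cmip members, all in intron 1 of 20, averaged 172, 144 and 85.0 tags in CD11c-high, 176, 145.5 and 77.3 in CD11c-low, and 86.8, 52.3 and 19.1 in basal.

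Whether the gates differed at the members was tested directly, since the rule had compared each gate with basal and not the gates with each other. A member had to exceed basal about 2-fold in both gates, which limits how far apart they can be. The CD11c-high mean was above the CD11c-low mean at 217 of 301 members (72.1%), by a median of 0.11 on the log2 scale (quartiles -0.02 and 0.27, range -0.59 to 0.82). With TMM factors the median was 0.16, with 248 of 301 (82.4%) above 0. The difference was under 0.25 at 211 members and under 0.5 at 284. Both CD11c-high libraries lay above both CD11c-low libraries at 127 members (42.2%) and below them at 25 (8.31%), against 26% and 35.9% of all 1108 regions and 47.8% and 5.86% of the other 324 shared gains.

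With limma over the 1108 regions, 11 members (3.65%) were higher and 1 (0.332%) was lower in CD11c-high than in CD11c-low at an adjusted p under 0.05. The same held for 2.08% and 12.8% of all regions fitted, and for 3.7% and 0% of the 324 other shared gains, so the share of members called higher was near that of the other gains. At an unadjusted p under 0.05, 46 members (15.3%) were higher and 2 (0.664%) were lower, against 10.4% and 23.5% of all regions and 21.3% and 0.926% of the other shared gains. edgeR's quasi-likelihood test on the whole reads recovered from the values called 33 higher and 1 lower, all 11 and the 1 of limma among them, and DESeq2 called 11 and 0, of which 7 were shared with limma. edgeR called 7.13% higher and 20.8% lower of all regions, and 14.2% and 0.309% of the other shared gains. DESeq2 called 2.72% and 11.2% of all regions, and 5.86% and 0% of the other shared gains. In the limma fit no member had an adjusted p under 0.01, and each call rests on 2 libraries per gate. With 1 gate library left out, the median difference of the members ran from 0.08 to 0.15. Median differences set the gains apart from the losses with identical coordinates: 0.11 at the members and 0.13 at the other shared gains, but -0.86 at the 483 shared losses, where the CD11c-high mean was the lower one at 455.

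**Figure D3:**
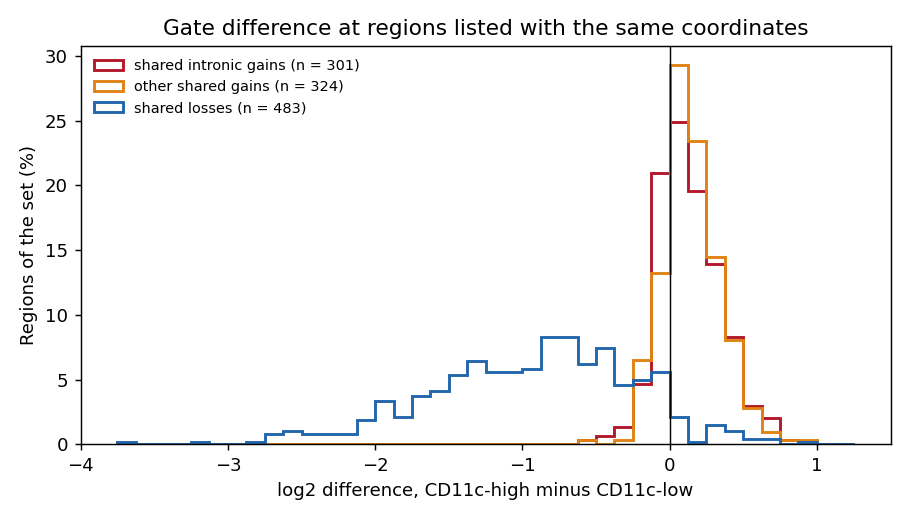
Share of regions (%) by log2 difference, CD11c-high minus CD11c-low, in bins of equal width, for the 301 shared intronic gains (red), the 324 other shared gains (orange) and the 483 shared losses (blue). Both sets of gains lie around 0, with medians of 0.11 and 0.13, and the losses spread to the left with a median of -0.86.

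**Figure D4:**
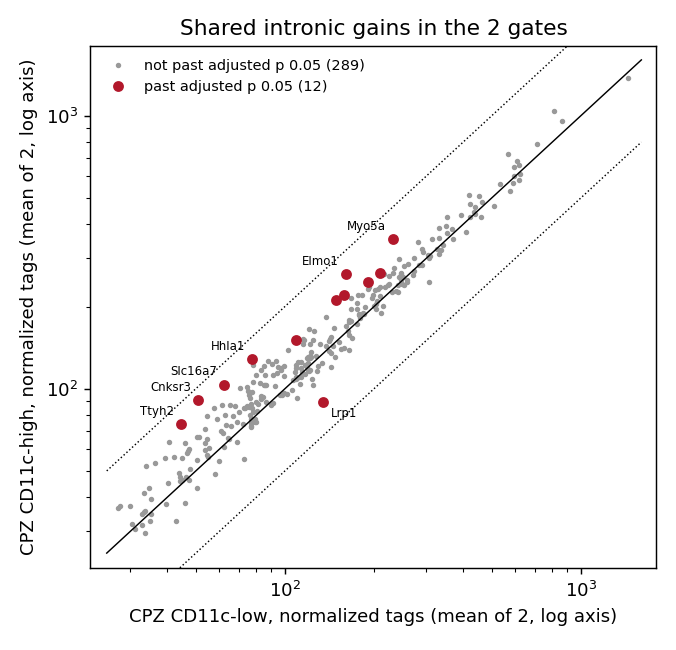
CPZ CD11c-high against CPZ CD11c-low level of each shared intronic gain (normalized tags, mean of 2 libraries, log axes). The solid line marks equality and the dotted lines 2-fold differences; filled red circles are the 12 regions past an adjusted p of 0.05 by limma, named where the absolute log2 difference is over 0.55. All points lie between the dotted lines, and Lrp1 is the only red circle below the solid line.

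The largest difference was at Cnksr3, a scaffold protein of the CNK family (chr10:7207158-7207945, intron 1 of 12; its sequence is given above). It had 90.5 and 91.7 tags in CD11c-high, 51.0 and 51.1 in CD11c-low, and 26.3 and 17.4 in basal, a log2 difference between gates of 0.82 (SE 0.14, adjusted p = 0.0259, limma). Its gate libraries hardly differed within a gate, and the groups did not overlap. Elmo1, an adaptor that links uptake of apoptotic cells to Rac (chr13:20457747-20459864, intron 16 of 21), had 252 and 273 tags in CD11c-high, 161 and 161 in CD11c-low, and 88.7 and 62.9 in basal. This was the smallest adjusted p of the members (log2 difference 0.70, SE 0.08, adjusted p = 0.0123, limma). Slc16a7, whose values are given above, had a difference of 0.72 (SE 0.13, adjusted p = 0.0284, limma).

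Myo5a, the myosin that moves organelles along actin (chr9:75070678-75072786, intron 1 of 40), had 346 and 359.7 tags in CD11c-high, 257 and 208 in CD11c-low, and 75.6 and 70.5 in basal, and a log2 difference of 0.61 (SE 0.12, adjusted p = 0.0329, limma). Its CD11c-low libraries were the ones that spread, and leaving out either moved the difference between 0.45 and 0.76. Ttyh2, a membrane protein of the tweety family, had 76.8 and 71.9 tags in CD11c-high, 47.1 and 41.9 in CD11c-low and 11.5 and 11.9 in basal (log2 difference 0.73, SE 0.17, adjusted p = 0.0454, limma). The Hhla1 region, in intron 1 of 14 of the potassium channel gene Kcnq3, had 121 and 136 tags in CD11c-high, 80.0 and 75.4 in CD11c-low and 36.1 and 21.7 in basal, with a difference of 0.71 (SE 0.12). Groups did not overlap at any of these.

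Differences of under 0.5 passed the test at Cytip, Top3a, Tmcc3, Cd86 and 4833415N18Rik. Cytip, a cytohesin-binding protein of blood cells, had 207 and 213.5 tags in CD11c-high, 156 and 141.5 in CD11c-low and 46.0 and 36.9 in basal. Top3a, a DNA topoisomerase, had 221 and 219.8 tags in CD11c-high, 170.2 and 146.5 in CD11c-low and 85.4 and 44.4 in basal. At Cd86, which encodes a costimulatory ligand for T cells, the region in intron 1 of 7 (chr16:36635416-36637760) had 241 and 251 tags in CD11c-high, 194 and 188 in CD11c-low and 87.1 and 75.9 in basal (log2 difference 0.36, SE 0.08, adjusted p = 0.0416, limma). A second Cd86 member, in intron 2 of 7, had 89.6 and 97.3 tags in CD11c-high against 79.2 and 89.6 in CD11c-low and 41.1 and 33.6 in basal, so its gates met at 89.6 tags. Another Cd86 region, at 5010 bp, was just over the width limit and averaged 1047 tags in CD11c-high, 938 in CD11c-low and 465 in basal. A further shared gain nearest to Cd86, not a member, had a log2 difference between gates of -0.11. The second Tmcc3 member had one of 0.0001.

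Lrp1, the large endocytic receptor for lipoproteins, myelin debris and other ligands (chr10:127610138-127611845, intron 2 of 88), was the only member called lower in CD11c-high. It had 85.9 and 92.5 tags in CD11c-high, 139.6 and 129.8 in CD11c-low, and 54.2 and 35.8 in basal. CD11c-high lay between CD11c-low and basal with no overlap, and the log2 difference was -0.59 (SE 0.11, adjusted p = 0.0323, limma). DESeq2 gave -0.54 and did not call it. Another shared gain nearest to Lrp1, not a member, had a log2 difference of 0.009 between the gates.

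**Figure D5:**
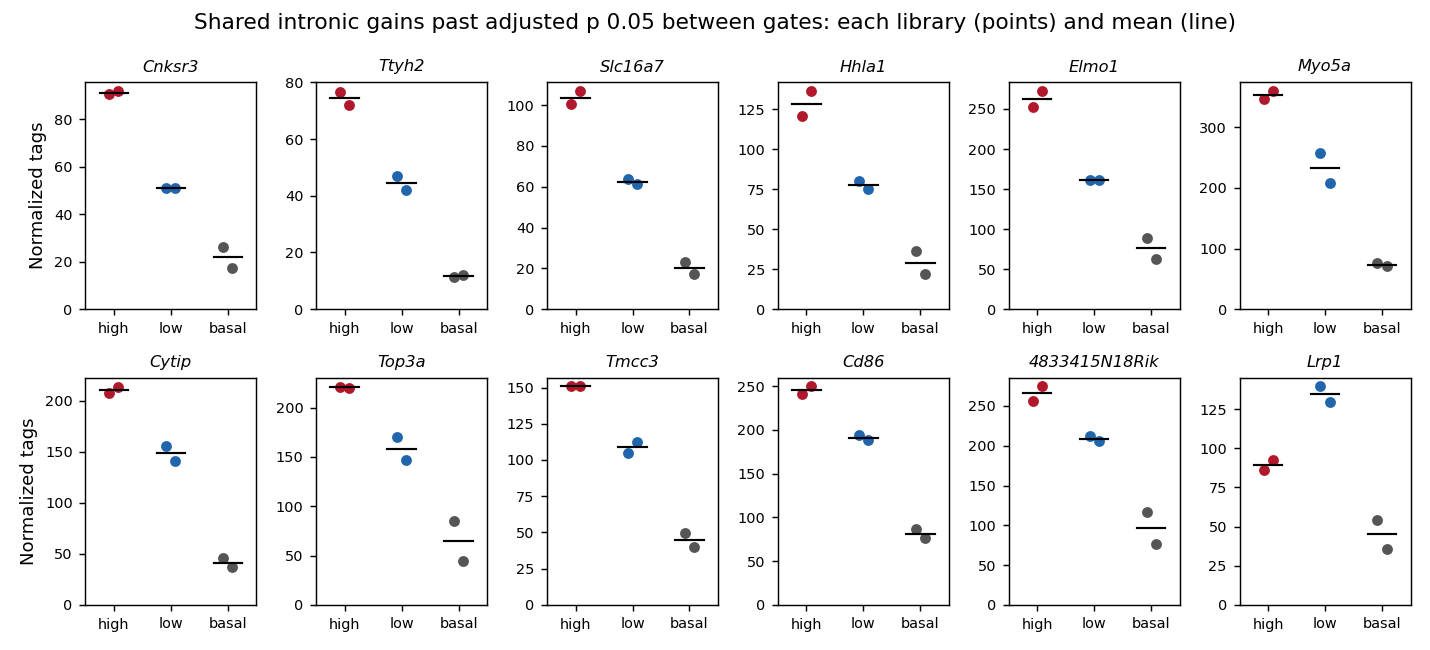
Normalized tags of the 12 shared intronic gains past an adjusted p of 0.05 between gates, in each library (points) with the group mean (line), for CPZ CD11c-high, CPZ CD11c-low and WT basal from left to right in each panel. In 11 panels CD11c-high is highest, and at Lrp1 CD11c-low is. Each vertical axis starts at 0 and has its own range.

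Few members were nearest to genes of the lists of 437 genes, chosen by function. No member was nearest to any of 30 disease-associated microglia genes, 30 homeostatic microglia genes or 36 interferon-stimulated genes and their factors, although 26, 6 and 18 of those genes had a listed gain somewhere. Gains at these genes that are not intronic, are wider or have other edges in the other comparison are not members. In the lipid and cholesterol list, 4 of 33 genes had a member, 0 rose and 1 fell (Lrp1). The median difference between gates was -0.09 over 4 regions, against 0.11 over all members and -0.04 over all regions fitted, losses included. Rxra, the retinoid X receptor that pairs with LXR and PPAR, had 502 and 515.5 tags in CD11c-high, 433 and 474 in CD11c-low and 236.5 and 149.6 in basal. Soat1, which esterifies cholesterol, had 250.4 and 276 tags in CD11c-high, 252 and 242 in CD11c-low and 126.5 and 114 in basal.

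In the list of integrins, adhesion and cytoskeleton, 4 of 29 genes had a member, 1 rose (Elmo1) and 0 fell, with a median difference of 0.58 over 4 regions, against 0.11 over all members and -0.04 over all regions fitted, of which 2.08% were called higher and 12.8% lower. Plxnc1, a semaphorin receptor, had 90.5 and 79.1 tags in CD11c-high, 59.6 and 55.3 in CD11c-low and 24.6 and 22.8 in basal, with an adjusted p of 0.0693 by limma. Arhgef3, a guanine nucleotide exchange factor, showed no separation, with 273 and 264 tags in CD11c-high, 289 and 257 in CD11c-low and 151 and 117 in basal. In antigen presentation and costimulation, 1 of 22 genes had members, both at Cd86, of which 1 rose. Tnfrsf1b, the TNF receptor 2 gene, was the 1 of 34 in the list of NF-kB factors, cytokines and chemokines. Its region lies in intron 11 of 12 of the neighbouring Tnfrsf8 and had 503.5 and 520.2 tags in CD11c-high, 438 and 399 in CD11c-low and 204 and 158 in basal (difference 0.29, adjusted p = 0.0619, limma).

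Among inducible factors, 2 of 33 genes had a member. Bach2, a transcriptional repressor, had 200.1 and 192 tags in CD11c-high, 180.4 and 171 in CD11c-low and 82.1 and 52.0 in basal, and the narrow Runx1 member had 52.1 and 34.8, 35.3 and 34.3, and 6.57 and 10.8 tags in CD11c-high, CD11c-low and basal. In metabolism and hypoxia, 2 of 23 had one: Slc16a3, given above, and the region nearest to Hif1a, the hypoxia-inducible factor, which lies in intron 12 of 13 of Prkch and had 334.5 and 298 tags in CD11c-high, 293 and 291 in CD11c-low and 82.1 and 79.1 in basal. In the cell cycle list 2 of 25 genes had a member. Cdkn1a, encoding the inhibitor p21, had 355.5 and 349.5 tags in CD11c-high, 392 and 344 in CD11c-low and 190.5 and 154 in basal, and Cdk6 had 221 and 260.1, 227 and 256, and 141 and 93.2 in the same order of groups. Gas7 and Pdgfc were 2 of 28 growth factor and survival genes, with 3 members and differences of 0.24 to 0.37, and Uvrag and Ctss 2 of 27 lysosome and autophagy genes, with differences of 0.18 and -0.07. No region of these 5 lists passed the test between gates.

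Of the markers of other cells, some of oligodendrocytes and endothelium were nearest to a member. Mbp, the myelin basic protein gene, whose longer golli transcripts are also made in immune cells, was the 1 of 15 oligodendrocyte markers, with 188 and 224.5 tags in CD11c-high, 173 and 178 in CD11c-low and 96.9 and 56.4 in basal. Pecam1 and Vwf were 2 of 14 endothelial markers, with differences between gates of 0.01 and -0.04. For comparison, 4 of 29 genes of the adhesion list and 0 of 30 homeostatic microglia genes had a member. No marker of monocytes and border macrophages (0 of 18), lymphocytes (0 of 16), astrocytes (0 of 12) or neurons (0 of 14) was nearest to a member. Whether chromatin of other cells adds to these regions was not tested.

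The members were close to the other listed regions in base composition. Their median GC content was 46.6% (4 lists together, 47.0%), 16.8% of bases were repeat-masked (17.4%), and there were 11.5 CpG per kb (11.5). At least 1 of 13 motifs occurred in the central 300 bases of 56.1% of the 301 members and 54.3% of all 11298 regions of the 4 lists. AP-1 letters (TGANTCA, either strand) were found in 34 members (11.3%), in 11.2% of all regions, and in 6.42% of the shared losses. RUNX letters (TGTGGTT) were found in 10.3% of members, 7.79% of all regions and 7.25% of shared losses, and PU.1 letters (GAGGAAGT) in 6.64%, 5.52% and 6.83%. C/EBP letters (TTGCNNAA) occurred in 12% of members and 14% of all regions, and IRF letters (GAAANNGAA) in 10.3% and 11.2%. The 8 other motifs were E-box (CACGTG, 4.32% of members and 4.59% of all regions), EGR (GTGGGCG, 2.66% and 2.76%), ETS (CCGGAAGT, 0.332% and 0.584%), MAF (TGCTGAC, 4.98% and 6.35%), MEF2 (CTAAAAATA, 0.997% and 0.912%), MiT/TFE (TCACGTGA, which contains the E-box letters, 0.664% and 0.283%), NF-kB (GGANTTTCC, 0.664% and 1.57%) and STAT (TTCNNNGAA, 9.3% and 9.06%). These shares are descriptions, and matches are not known to be bound.

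The deposited lists held 49 regions lower and 222 higher in KO than in WT CD11c-low cells, and 383 lower and 526 higher in KO CD11c-low than in WT CD11c-high cells. None had the coordinates of a member, and 3 members (0.997%) overlapped 1 listed region each by at least 1 bp, against 0.926% of the other shared gains, 7.87% of the shared losses and 7.53% of all regions listed against basal. The Dreh member (chr17:64721838-64723155, in intron 16 of 21 of Man2a1, a Golgi mannosidase) lay wholly within a region of 4045 bp that was higher in KO, with 456 and 368.5 tags in KO CD11c-low against 186.5 and 153 in WT CD11c-low on the scale of that comparison. The member itself had 68.5 and 64.8 tags in WT CD11c-high, 58.8 and 43.5 in WT CD11c-low and 14.8 and 26.0 in basal. The Lrp1 member lay wholly within a region of 3593 bp with 305 and 306 tags in KO CD11c-low against 150.4 and 148 in WT CD11c-high, and 58.3% of the Bach2 member was covered by a region with 46.3 and 86.7 tags in KO CD11c-low against 143 and 125.5 in WT CD11c-high. The last comparison differs in gate as well as genotype, which cannot be told apart there. Neither list of regions that differ between the WT gates (208 lower and 241 higher in CD11c-high) overlapped a member. Those lists require an absolute log2 difference over 1, which no member reached, and no other shared gain overlapped them either. They overlapped 7.45% of the shared losses and 4.22% of all regions listed against basal.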

How the data were processed

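H3K27ac ChIP-seq of sorted mouse microglia was used as deposited, as 10 lists of regions called different by the authors in 5 comparisons. Per the submitters' processing notes and the study's methods, the tools were Bowtie2, FastQC 0.11.9, SAMtools 0.1.19, HOMER, which called regions against input and merged them between the groups compared, and DESeq2. The deposited signal, a normalized tag count per region and library, was scaled by the authors to the mean size of the 4 libraries of a comparison. Only regions with an adjusted p under 0.05 and an absolute log2 fold change over 1 are listed, so unchanged regions are not analysed here. Columns of fold change, p and adjusted p are the authors' own findings and were not used, nor were 19 per-library columns of a second workbook. The sources name hg19 and mm10. At 301 of 301 members the stated distance to a start matched GRCm38.p6 (mm10) within 100 bp, and that build was used.

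Values were whole multiples of 1 read (100%, within 0.006 tags plus 0.003 reads, the last growing with the count above 300 reads), which gave reads and relative depth, with absolute totals unknown. Intervals of reads would cover counting error only. The gates were compared with limma 3.58.1 on log2(value + 1), which understates differences of low regions, in 4 libraries over 1108 regions with Benjamini-Hochberg adjustment, and p-values measure the spread between 2 libraries per group. The test was tested on simulated data with the same dispersion at every region and as many rises as falls, which need not hold in these data. Alternatives were a pseudocount of 5, a mean of at least 50, TMM factors, a width under 2000 bp, the host gene's start as nearest, reciprocal overlap, edgeR 4.0.16 and DESeq2 1.42.0 on recovered reads, all 6 libraries, a replicate block, stricter thresholds and leaving out each replicate. Over all 1108 regions edgeR called 79 higher and 231 lower in CD11c-high, and limma 23 and 142.

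The members, the 18 gene lists (437 genes), the motifs and the rule for named genes were chosen with earlier results of these data known. The rule takes 1 region per nearest gene: the 8 highest in CD11c-high, up to 8 per direction with the largest gate difference past an adjusted p of 0.05, with a mean of at least 50 in the higher gate and no overlap, up to 3 per list, the 5 lowest in basal with at least 100 tags in CD11c-high, the 5 highest in basal, and up to 5 with the same coordinates in another list (there were 0). Regions named outside it, such as Tmcc3, 4833415N18Rik, Erdr1, Cmip, Dreh and Adcy7, were chosen after their values were seen. The values of 1 member of the lipid list are not reported here. Host genes were matched through RefSeq (300 of 301). Work used Python 3.11.15, numpy 2.4.6, pandas 2.3.3, matplotlib 3.10.9 and R 4.3.3.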

Additional observations from a re-analysis of the deposited data

Results flagged for a closer look

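The gates of cuprizone-fed mice differed from each other, by the direct limma test of CD11c-high against CD11c-low, at 12 member regions. Of the members, 3.65% were called higher and 0.332% lower in CD11c-high. The shares were 2.08% and 12.8% of all 1108 regions fitted, and 3.7% and 0% of the 324 other shared gains. The share called higher was thus near that of the other gains. Basal microglia were not divided by CD11c and were not part of that test. Whether the effect of cuprizone differed between the gates was therefore not tested. On the log2 scale, CD11c-high minus CD11c-low was 0.824 at Cnksr3, 0.73 at Ttyh2, 0.724 at Slc16a7, 0.715 at Hhla1, 0.702 at Elmo1, 0.608 at Myo5a, 0.499 at Cytip, 0.479 at Top3a, 0.471 at Tmcc3, 0.362 at Cd86, 0.346 at 4833415N18Rik and -0.589 at Lrp1. Cnksr3, Elmo1 and Myo5a passed an adjusted p of 0.05 in all 7 other fits with every gate library, and Ttyh2 in 4 of 6, with adjusted p between 0.00789 and 0.112. With 1 library left out, adjusted p ranged from 0.0654 (Elmo1) to 0.232 (4833415N18Rik, Cd86 and Ttyh2) over these regions.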

How the results depend on the processing

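The direction of the gate difference was kept at each of the 9 regions named for it under every alternative that gave a value, and no value changed sign. They were chosen for gate libraries that did not overlap, so leaving out a library or changing the pseudocount could not turn the sign. The count of 11 higher and 1 lower changed with the setting. It was 22 higher with TMM factors, 33 with edgeR, 30 with a mean of at least 50 over the 6 libraries, 7 under 2000 bp, 6 with an absolute log2 difference of at least 0.5, and 3 higher and 0 lower with all 6 libraries in the fit. The counts over all regions moved too, with 23 higher and 142 lower in the reported fit and 63 and 150 with TMM factors. They were 79 and 231 with edgeR, and 68 and 137 of 706 with a mean of at least 50. With all 6 libraries they were 5 and 224, and with DESeq2 30 and 124 of 1103. DESeq2 called 0 lower, an adjusted p under 0.01 left 0 higher and 0 lower, and leaving out any gate replicate left 0 to 0 of each, where the lone library of a gate was assumed to vary like the others. With the replicate number as a replicate block, 21 were higher and 1 lower, with the 11 of the fit without it among them. Over all 1108 regions, the fit with that block called 49 higher and 181 lower. The numbers were not taken as pairs: deviations of same-numbered gate libraries correlated at 0.06 over 1108 regions and 0.27 over the members, in 2 pairs.

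Regions matched by a reciprocal overlap of at least 50% (1419, whose edges may differ between the gates) gave 518 higher and 33 lower, a median gate difference of 0.23, and medians against basal of 1.79 for CD11c-high and 1.59 for CD11c-low. In that set 52.3% of regions were wider in the CD11c-high list, and the cause of the larger count was not tested. Calls over all regions matched in this way are not reported, so these counts have no background to be set against. They are not read as a result about intronic gains. TMM factors gave medians against basal of 0.93 for CD11c-high and 0.74 for CD11c-low. The median gate difference of 0.11 ran from 0.08 to 0.15 when 1 gate library was left out, and the medians against basal from 1.3 to 1.55 for CD11c-high and 1.17 to 1.42 for CD11c-low when 1 library was. With 2 libraries per group, the smallest difference called at a member was 0.35.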
